A study of Homo sapiens with 6 samples.

Results

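The 40 genes described here encode effectors of the interferon response, proteins that cells make to block the entry, replication or release of viruses. They were taken by gene symbol from the 46427 genes of a raw count matrix, and each of the 40 symbols matched a row. The list was drawn up with results of this same comparison known, so the values of its members are a description of the cells sequenced and carry no test. All 40 passed the filter on low counts that left 17419 genes for testing, and the smallest count of any of them in any library was 63. The cells were Hs578T, a triple-negative breast cancer line of mesenchymal character. The control group, shCTRL, carried a control short hairpin RNA in a pSUPER retroviral vector, and the knockdown group, shCCN3, carried hairpin #2 against CCN3, a secreted matricellular protein, in the same type of vector. Both groups had therefore been infected with a retrovirus and selected with puromycin, and both were kept in DMEM with serum. Each group had 3 libraries, which the series describes as independent biological replicates. A single CCN3 hairpin was sequenced, and each group was infected and selected on its own. Lower CCN3, any other effect of that hairpin and any difference that arose between the lines cannot be told apart. Whether the libraries of a group came from more than a single infection is not stated in the sources used here.

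Type I and type III interferons bind receptors that activate the kinases JAK1 and TYK2, which phosphorylate STAT proteins. These join IRF9 in a complex that binds the interferon-stimulated response element, a short promoter sequence built of repeated GAAA blocks, and switches on antiviral effector genes. Many of the same genes can also be switched on directly by IRF3 and IRF7 when sensors detect foreign or misplaced nucleic acid, and in tumours their sustained expression is known as an interferon signature.

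The libraries held between 56159110 and 68393177 counts assigned to genes, so 3 counts corresponded to 0.0439 to 0.0534 CPM, the unit of counts scaled to a common library total. CPM were adjusted with TMM factors and are not corrected for gene length. CCN3 itself stood at 101 ± 2.43 CPM (SD, n = 3) in shCTRL and 47.0 ± 0.469 CPM in shCCN3 (log2 fold change -1.10, SE 0.06, edgeR adjusted p = 1.34e-06). The mesenchymal markers VIM, ZEB1, CD44, AXL, FN1 and SPARC were present in every library, whereas ESR1, EPCAM and CDH1 had at most 10 counts in any library. CD44 was called lower in shCCN3 (2158 ± 52.3 against 1815 ± 46.0 CPM). No other mesenchymal marker was called with all 6 libraries, although VIM and SPARC were lower in every shCCN3 library than in any shCTRL library. With shCCN3 replicate 2 left out, VIM was called lower and FN1 higher (edgeR adjusted p = 0.00533 and 0.0029). PGR averaged 2.86 CPM in shCTRL and 3.80 CPM in shCCN3, and ERBB2 77.9 and 78.2 CPM. The epithelial keratin KRT18 was expressed and called higher in shCCN3 (163 ± 7.58 against 232 ± 27.6 CPM), and KRT8 was called lower (20 ± 2.02 against 13.9 ± 0.673 CPM). Of 9 leukocyte markers, 6 (CD3E, CD4, MS4A1, ITGAM, FCGR3A and NKG7) were at 0 in all libraries, and the 9 summed to 0.422 to 0.828 CPM in shCTRL and 0.468 to 0.856 CPM in shCCN3. Because the RNA came from whole cultures, a larger share of cells expressing a gene and more of its RNA per cell cannot be told apart.

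The antiviral effectors were mostly higher in shCCN3 cells. The median log2 fold change of the 40 was 1.00, with quartiles of 0.47 and 1.77, against 0.01 for all genes tested. In edgeR's quasi-likelihood test, adjusted over all genes, 33 of the 40 (82.5%) were called higher, and the same call was made for 16.2% of all genes. None was called lower, by edgeR, by DESeq2 or at an unadjusted p under 0.05, while 17.3% of all genes were called lower and 3.93% were called and at least 2-fold lower. A total of 20 members were called and at least 2-fold higher (4.17% of all genes), and 34 had every shCCN3 library above every shCTRL library (22.7% of all genes). These shares describe how the list was drawn up, and nothing is read from them. Summed over the 40 genes, the shCTRL libraries held 1500, 1555 and 1595 CPM and the shCCN3 libraries 2567, 2775 and 2633 CPM, a ratio of 1.72. Exons of 9 members overlap a gene on the opposite strand, and whether counting used the strand of this stranded library kit is not given in the sources used here, so these values are less certain. The 9 are OAS1, EIF2AK2, MX1, IFITM3, LY6E, ISG15, PARP9, DTX3L and XAF1. IFITM3 alone supplied 22.0% of the shCTRL sum and 19.3% of the shCCN3 sum.

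The size of the difference varied widely between members, from a log2 fold change of -0.22 for LY6E to 3.07 for BST2. A total of 8 members were at least 4-fold higher, beside 1.76% of all genes tested. Across the 40 genes the change was larger where the shCTRL level was lower (Spearman's rho -0.576 on CPM and -0.369 on CPM per kb of exon, a description across genes in which both quantities share the shCTRL libraries). Of 13 members whose highest shCTRL library was below 10 CPM, 10 were at least 2-fold higher. Of 10 members with a shCTRL mean of at least 50 CPM, 2 were, IFIT3 and IFI6. On the per-length scale the most abundant in shCTRL were IFITM3 at 282 CPM per kb, LY6E at 98.9 and IFI6 at 93.5, and the lowest was HERC5 at 0.318.

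Promoter sequence is shown for members because the response element is where the pathway acts on these genes. The members are known as interferon-induced genes, so a high share with the element comes with the list and is not a result of these data. RefSeq windows on GRCh38.p14, from 250 bases before to 50 bases after each annotated start site, were matched for 31 of the 40 members. No entry was used for IFIT2, OAS2, OASL, MX2, IFITM2, LY6E, UBA7, USP18 or TRIM22. The core of the response element, spelled GAAA, then 2 bases of any kind, then GAAA, and searched on both strands so that it also reads TTTC, 2 bases, TTTC, occurred in 24 of the 31 (77.4%), in 3.57% of all 35116 promoters and in 4.12% of the 12597 tested genes with a promoter. A second motif, TTCNNNGAA on either strand, a palindromic core known from promoters that respond to interferon gamma, occurred in 9 of the 31 and in 8.84% of tested genes. A match is a description of the letters in the window and not a bound site. The windows below show 26 bases around a match in 7 members with log2 fold changes from 0.98 to 3.07 (BST2 to ISG15) and in 4 members with smaller ones, from 0.08 to 0.53, that carry it too (SAMD9 to DTX3L). They are written 5′ to 3′ on the strand of the gene, and capitals mark a single core in each line. The BST2 and ISG15 windows each hold a further core that overlaps the marked one and is not capitalised in full.
BST2 (chr19:17405743-17405768, minus strand): ctttctggGAAACTGAAActgaaaac
IFITM1 (chr11:314026-314051, plus strand): acttctgaGAAACTGAAAcgacaggg
IFI27 (chr14:94110620-94110645, plus strand): gtctgcagTTTCGGTTTCctggaaaa
RSAD2 (chr2:6877624-6877649, plus strand): gtttcaacTTTCAGTTTCacatgtgg
EPSTI1 (chr13:42992274-42992299, minus strand): gattctgaGAAACCGAAActcagctg
IFIT3 (chr10:89332427-89332452, plus strand): agattctgTTTCAGTTTCccctcaag
ISG15 (chr1:1013382-1013407, plus strand): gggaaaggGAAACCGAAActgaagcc
SAMD9 (chr7:93118098-93118123, minus strand): tgagaaatGAAACTGAAAccaaacct
IFI44L (chr1:78620276-78620301, plus strand): ctagtgagGAAAAAGAAAgttagtgg
PARP9 (chr3:122564324-122564349, minus strand): gcgcaaagTTTCAGTTTCgcttccct
DTX3L (chr3:122564324-122564349, plus strand): agggaagcGAAACTGAAActttgcgc

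The PARP9 and DTX3L lines are the same site read from opposite strands, since these genes are transcribed away from each other. Members were called higher both with and without the core. The search took only the exact spacing. OAS1, IFI35 and CMPK2, counted as without it, have a window with GAAA blocks separated by a single base, read on either strand. Of 24 members with it, 22 were called higher (median log2 fold change 1.05), and of the 7 matched members without it, OAS1, HERC6, CMPK2, SAMD9L, HELZ2, IFI35 and XAF1, 5 were (median 0.84). Among 495 tested genes outside the list that carry the core, 21.4% were called higher and 14.5% lower, against 16.1% higher among the 12071 without it.

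IFIT1 and IFIT5 lie in the same gene cluster on chromosome 10 and both carry the core, and they differed widely in log2 fold change, so the 250 bases before each start site are given in full. Capitals again mark the core, which occurred at 2 places in the IFIT1 window and at 3 in the IFIT5 window, 1 of these crossing the start site and so not wholly shown.
IFIT1 (chr10:89392373-89392622, plus strand): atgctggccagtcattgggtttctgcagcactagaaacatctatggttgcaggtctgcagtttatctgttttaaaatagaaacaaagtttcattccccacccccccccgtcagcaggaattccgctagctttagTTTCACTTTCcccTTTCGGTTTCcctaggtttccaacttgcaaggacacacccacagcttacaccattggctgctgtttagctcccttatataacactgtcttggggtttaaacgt
IFIT5 (chr10:89414318-89414567, plus strand): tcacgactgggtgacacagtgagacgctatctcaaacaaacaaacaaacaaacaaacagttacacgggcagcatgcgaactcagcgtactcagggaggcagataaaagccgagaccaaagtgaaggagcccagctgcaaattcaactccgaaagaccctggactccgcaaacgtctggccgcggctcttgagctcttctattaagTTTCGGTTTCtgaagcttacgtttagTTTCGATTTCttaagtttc

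The IFIT proteins bind foreign RNA by its unusual 5′ end and keep it from being translated. All 4 members were called higher, their median was 1.74 on the log2 scale, and 3 of them had close values. Here and below, values are in the order replicate 1, 2 and 3, shCTRL first, and are followed by the fitted log2 fold change of shCCN3 over shCTRL with its standard error. IFIT1, which holds RNA lacking the host cap modification, was at 39.4, 39.9 and 42.4 CPM in shCTRL and 132, 136 and 138 CPM in shCCN3 libraries (1.74, SE 0.06). IFIT2, its partner in RNA binding, was at 25.7, 24.4 and 22.1 CPM and 88.8, 82.1 and 89.7 CPM (1.85, SE 0.08). IFIT2 shares 356 exon bases with AL353751.1 on the same strand, and 7.5% of its 50-base stretches occur in that gene. IFIT3, which stabilises IFIT1, was at 54.5, 56.5 and 55.4 CPM and 183, 183 and 187 CPM (1.73, SE 0.05). In these 3 genes the lowest shCCN3 library stood at more than 3 times the highest shCTRL library. IFIT5, with the promoter printed above, was the exception at 20.3, 19.3 and 20 CPM against 22.5, 24.8 and 23.3 CPM (0.24, SE 0.07). Its groups did not overlap, but the gap between them was narrow, and its call was lost with a replicate block and without shCCN3 replicate 3 or any 1 of the shCTRL libraries.

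The oligoadenylate synthetases sense double-stranded RNA and make the messenger that activates RNase L, and EIF2AK2 (PKR) senses the same ligand and stops translation. All 5 members were called higher, with a median of 1.65. OASL, a family member without synthetase activity that assists RIG-I, had 18.1, 18.96 and 20.3 CPM and 73.4, 91.4 and 81.6 CPM (2.10, SE 0.09). OAS1 had 7.61, 7.39 and 8.46 CPM and 25.8, 24.2 and 25.3 CPM (1.68, SE 0.08), and OAS2 had 10, 9.07 and 10.04 CPM and 33.3, 27.1 and 31.2 CPM (1.65, SE 0.10). OAS1, OAS2 and OASL showed a gap between the groups wider than the range within either. OAS3, the largest synthetase, differed less, at 24.6, 22.9 and 21.2 CPM and 39.4, 27.8 and 39.5 CPM (0.64, SE 0.13), and its shCCN3 replicate 2 lay far below the other two. EIF2AK2 had 70.4, 71.1 and 67.5 CPM and 87.4, 78.5 and 89.6 CPM (0.29, SE 0.07), a small difference at a high level. The groups of all 5 genes were separate.

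MX1 and MX2 are dynamin-like GTPases that trap incoming viral particles, MX1 in the cytoplasm and MX2 at the nuclear pore. MX2 was at 5.81, 4.63 and 5.48 CPM and 22.2, 21.3 and 24.1 CPM (2.08, SE 0.10). MX1, often used as a marker of interferon exposure, was among the least abundant members per kb and stood at 2.04, 1.58 and 2.19 CPM and 3.35, 3.82 and 3.96 CPM (0.94, SE 0.16). Neither gene had overlapping groups.

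Of 8 effectors that act at membranes or on lipids, 7 were called higher, and this group held both the highest and the lowest log2 fold change of the list. BST2 (tetherin), which ties budding virions to the cell surface, was at 4.26, 5.01 and 6.75 CPM and 38.7, 53.3 and 42.9 CPM (3.07, SE 0.18, a fold of 8.41). IFITM1, which hinders fusion at the plasma membrane, was at 12.3, 15.6 and 12.4 CPM and 75.4, 95.4 and 79.97 CPM (2.63, SE 0.12). RSAD2 (viperin), which makes a chain-terminating nucleotide, was at 9.40, 10.2 and 10.3 CPM and 47.4, 48.7 and 58.8 CPM (2.37, SE 0.10). For each of these the lowest shCCN3 library was more than 4 times the highest shCTRL library. RTP4, a chaperone of membrane receptors, was at 2.65, 2.09 and 2.26 CPM and 6.22, 7.97 and 5.91 CPM (1.52, SE 0.16). The endosomal IFITM2 was at 2.65, 3.66 and 3.83 CPM and 5.61, 6.42 and 5.58 CPM (0.80, SE 0.15), and IFITM3 was at 317, 342 and 367 CPM and 488, 592 and 461 CPM (0.59, SE 0.10). Of the 50-base stretches in their transcripts, 34.1% of those of IFITM2, 32.0% of IFITM1 and 17.4% of IFITM3 also occur in another gene, so the split of reads between these relatives is uncertain. PLSCR1, a phospholipid scramblase, was at 51.6, 48.6 and 46.2 CPM and 81.3, 74.9 and 78.2 CPM (0.68, SE 0.07). LY6E, a surface protein that blocks coronavirus entry, was at 192, 214 and 230.1 CPM and 167, 211 and 167 CPM (-0.22, SE 0.10), with overlapping groups. Without shCCN3 replicate 2, its highest library, LY6E was called lower (log2 fold change -0.34).

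ISG15 is a ubiquitin-like protein that UBA7 activates, HERC5 attaches to new proteins and USP18 removes. Of the 5 members of this system, 3 were called higher, and the activating and removing enzymes were not. HERC5, the attaching ligase, had 0.917, 1.35 and 1.16 CPM and 4.82, 5.60 and 4.21 CPM (2.09, SE 0.18). Its relative HERC6 had 13.3, 12.8 and 11.9 CPM and 24.7, 25.4 and 26.6 CPM (1.01, SE 0.08), and ISG15 itself had 48.6, 51.1 and 59.97 CPM and 90.3, 131 and 94.7 CPM (0.98, SE 0.14). All 3 had separate groups, and ISG15 was highest in shCCN3 replicate 2. UBA7 had 55.1, 57 and 59.3 CPM and 51.9, 51.1 and 55.1 CPM (-0.12, SE 0.06), and its groups met at the edge. USP18, which also damps signalling from the receptor, had 21.7, 20.3 and 19.6 CPM and 21.9, 20.9 and 23.5 CPM (0.11, SE 0.08) with overlap, and 23.4% of its 50-base stretches occur in another gene, mostly USP41.

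The enzymes of nucleic acid and nucleotide metabolism had a median of 0.68, and 3 of 4 were called higher. ISG20, an exonuclease that degrades viral RNA, was at 3.71, 4.28 and 5.20 CPM and 10.1, 11.9 and 10.1 CPM (1.28, SE 0.14). CMPK2, a mitochondrial nucleotide kinase, was at 5.25, 4.57 and 5.54 CPM and 9.78, 8.40 and 9.37 CPM (0.84, SE 0.11). Both had separate groups. SAMD9 was at 29.2, 27.5 and 22.04 CPM and 41.2, 30.6 and 41.4 CPM (0.53, SE 0.14), and its paralog SAMD9L was at 32.9, 32.3 and 28.8 CPM and 29.5, 23.7 and 30.7 CPM (-0.16, SE 0.10). Both restrict poxviruses and sit side by side on chromosome 7, and they lay on opposite sides of 0. The call for SAMD9 was lost when shCCN3 replicate 1, shCCN3 replicate 3 or shCTRL replicate 3 was left out.

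Of 5 ADP-ribosylation and nuclear regulators, 4 were called higher. TRIM22, a ubiquitin ligase active against several viruses, stood apart at 4.57, 4.63 and 3.73 CPM and 16.5, 13.2 and 17.4 CPM (1.87, SE 0.13). Of the 50-base stretches of TRIM22, 12.1% occur in another gene, mostly OR56B1. PARP14, an ADP-ribosyltransferase, was at 63.2, 62.1 and 60.1 CPM and 93.8, 83.6 and 104 CPM (0.60, SE 0.08). The helicase HELZ2 was at 44.8, 49.4 and 47.04 CPM and 69.4, 62.99 and 82.2 CPM (0.60, SE 0.10). These 3 had separate groups. DTX3L and PARP9 form a ligase complex, share a promoter region and overlap by 217 exon bases on opposite strands. DTX3L was at 88.5, 82.7 and 80.9 CPM and 102, 88.6 and 107 CPM (0.24, SE 0.08), a call that was lost without any 1 of 5 of the libraries, and PARP9 was at 61.5, 60.3 and 54.8 CPM and 65.6, 56.4 and 64.2 CPM (0.08, SE 0.08) and overlapped.

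The other interferon-induced proteins had a median of 1.19, and 5 of 7 were called higher. IFI27, a small mitochondrial protein, was at 4.18, 4.93 and 6.21 CPM and 23.2, 34.5 and 25.4 CPM (2.44, SE 0.18). EPSTI1 was at 2.56, 2.15 and 2.49 CPM and 11.2, 10.7 and 11.7 CPM (2.22, SE 0.11), and XAF1, a promoter of apoptosis, was at 4.56, 4.84 and 4.80 CPM and 12.8, 11.2 and 13.3 CPM (1.40, SE 0.10). In each of these the groups were far apart, although 2535 exon bases of XAF1 are shared with a gene on the other strand. IFI6, the third most abundant member per kb in shCTRL, was at 72.6, 79.9 and 90.2 CPM and 155, 198 and 169 CPM (1.11, SE 0.11). IFI44 was at 24.4, 24.3 and 23.9 CPM and 54.7, 54.3 and 57.1 CPM (1.19, SE 0.06), and its neighbour IFI44L was at 12.1, 13.8 and 11.3 CPM and 16.3, 13.9 and 14.9 CPM (0.28, SE 0.10). IFI44L did not overlap but was not called, with the nearest libraries at 13.8 and 13.9 CPM. IFI35, a leucine zipper protein, was at 35.9, 37.6 and 42.9 CPM and 40, 48.2 and 38.5 CPM (0.12, SE 0.10), with overlap.

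The members lie on 17 chromosomes, and 22 of them sit in 9 clusters in which adjacent genes are at most 100 kb apart (RefSeq, GRCh38.p14). Within a cluster the members did not move by the same amount. In the IFIT cluster (chr10:89302046-89420997) the log2 fold changes ran from 0.24 to 1.85, and in the IFITM cluster (chr11:307816-320860) from 0.59 to 2.63. In the OAS cluster (chr12:112906962-113011723) they ran from 0.64 to 1.68, and for MX2 and MX1 (chr21:41362027-41459214) they were 2.08 and 0.94. Neighbours were taken only from outside the list, so adjacent members of a cluster are left out of the values that follow. The nearest tested genes outside the list, up to 12 on each side of a member, had a median log2 fold change between -0.37 and 0.33. There were 24 of them for each member except IFITM1, IFITM2 and IFITM3, which had 18. By at least 1 log2 unit, 21 members exceeded the median of their neighbours. The same share was not computed for genes outside the list, so nothing is read from this count. The lowest neighbour value, -0.37, belonged to SAMD9 and SAMD9L on chromosome 7, where the median of all 821 tested genes was -0.43. SAMD9L, at -0.16, lay above that value. The neighbours of MX1 and MX2 had a median of 0.23, as did all 224 tested genes of chromosome 21.

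The shCCN3 libraries did not vary evenly. Replicate 2, the shallowest at 56159110 counts, was the lowest of its group for 22 members and the highest for 14. The direction followed exon length: the log2 ratio of replicate 2 to the mean of replicates 1 and 3 fell with length across the members (Spearman's rho -0.773) and across 12709 genes of at least 1 CPM (rho -0.612), a description across genes within these libraries. The 16 members with under 3 kb of exon had a median ratio of 0.29, and the 24 longer ones had -0.15. OAS3 and SAMD9 were the lowest and IFI27 and ISG15 the highest on this scale. The same slope appeared in shCTRL replicate 3 at rho -0.472. Between the groups, length against the log2 ratio of shCCN3 to shCTRL gave rho 0.108 across the same 12709 genes, and length against log2 fold change gave rho -0.337 across the 40 members. Without shCCN3 replicate 2 the median log2 fold change was 1.10 in place of 1.15 for short members and 0.91 in place of 0.89 for long ones. The median SD of the members' log2 CPM within shCCN3 was 0.141 with that library and 0.0493 without it, and over all genes of at least 1 CPM it was 0.122 and 0.055. What gave replicate 2 its slope was not tested.

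**Figure D1:**
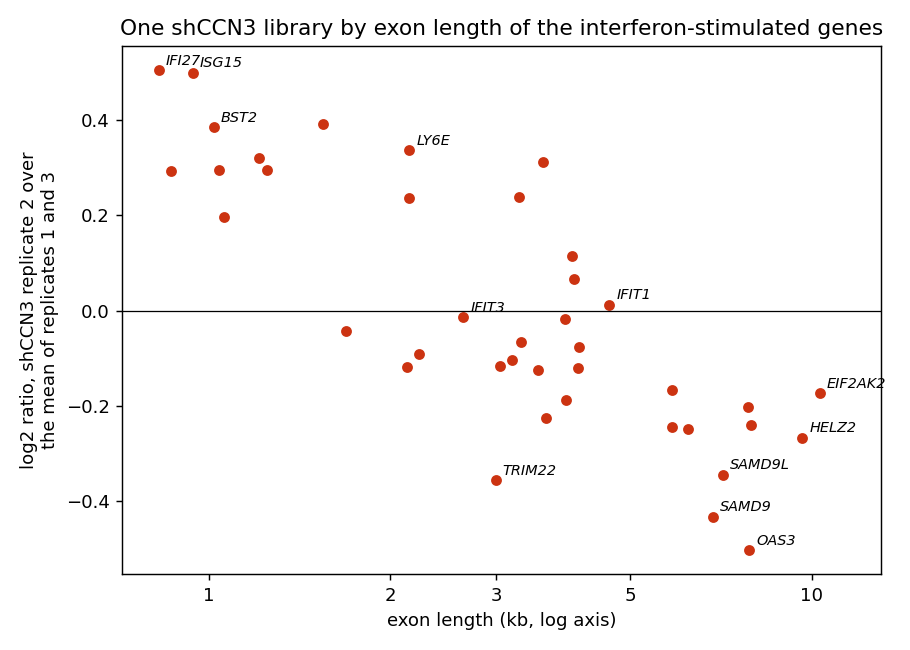
Log2 ratio of CPM in shCCN3 replicate 2 to the mean of replicates 1 and 3, against exon length in kb (log axis), 1 point for each of the 40 genes. Short genes such as IFI27 and ISG15 lie above 0, and long genes such as OAS3 and SAMD9 lie below it.

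The rest of the pathway was examined with 118 further genes listed by function and not by how they moved, though with earlier results known, of which 89 could be tested. Of these, 44 (49.4%) were called higher and 9 (10.1%) lower, beside 16.2% and 17.3% of all genes. Among 21 interferon genes, 14 were at 0 in all 6 libraries and 3 could be tested. IFNB1, the interferon most cells make first, was at 1.80, 1.85 and 2.31 CPM in shCTRL and 3.95, 6.55 and 4.36 CPM in shCCN3 (log2 fold change 1.31, SE 0.21, adjusted p = 0.00118). IFNL1, a type III interferon, was at 0.859, 1.02 and 1.48 CPM and 1.92, 2.29 and 2.25 CPM (0.94, SE 0.22, adjusted p = 0.00977). IFNE, an interferon of reproductive epithelium, went the other way at 7.26, 7.50 and 6.93 CPM and 2.97, 3.10 and 3.55 CPM (-1.17, SE 0.11, adjusted p = 5.78e-05). IFNB1 and IFNL1 each had separate groups at levels of a few CPM, and their highest counts were 364 and 144.

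On the log2 scale the receptor subunits changed by a median of 0.31 and the signal transducers by 0.39. Of 6 receptor subunits 4 were called higher, led by IFNGR1 of the interferon gamma receptor (1.19, SE 0.06, adjusted p = 1.59e-06). IFNAR2 rose by 0.46, IFNGR2 by 0.42 and IFNAR1 by 0.20 on the log2 scale. All 3 lie on chromosome 21, where the median of all 224 tested genes was 0.23, so IFNAR1 did not exceed that median. Of 12 kinases, STATs and IRFs 6 were called higher and none lower by edgeR. Among them were IRF7 (0.94, SE 0.12), the inducible factor that amplifies interferon production, IRF9 (0.54, SE 0.07), JAK2 (0.52, SE 0.15), STAT2 (0.44, SE 0.06) and JAK1 (0.43, SE 0.08). The 3 cytoplasmic RNA sensors rose together: IFIH1 (MDA5) from 8.37 ± 0.364 to 25.6 ± 1.79 CPM (1.61, SE 0.08), DHX58 (LGP2, 1.41, SE 0.23) and RIGI (1.39, SE 0.07), with adjusted p of 1.56e-06, 0.0013 and 1.05e-06. Their adaptor MAVS fell by 0.55 (SE 0.06, adjusted p = 0.000171), and IKBKE, a kinase downstream of it, fell by 0.46. Of 6 negative regulators, SOCS1 fell by 0.95 (SE 0.20, adjusted p = 0.00506) and SOCS3 by 0.30, and PTPN2 rose by 0.28.

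A further 30 antiviral genes induced by interferon had a median of 0.16, with 14 called higher and 2 lower. BATF2 (1.45, SE 0.17), DDX60L (0.71, SE 0.08) and LGALS9 (0.64, SE 0.16) led the rises, and IFI30 and PML fell by 0.38 and 0.26. Genes known best as interferon gamma targets had a median of 1.27, with 6 of 10 called higher and 2 lower. The guanylate-binding genes did not all rise: GBP3 was called lower, at 43.6 ± 1.86 CPM in shCTRL and 31.5 ± 3.03 CPM in shCCN3 (-0.47, SE 0.08). GBP5, a guanylate-binding protein, rose from 0.478 ± 0.0802 to 2.75 ± 0.178 CPM (2.52, SE 0.19), GBP4 by 2.02 and GBP1 by 1.43 on the log2 scale, IDO1, which degrades tryptophan, by 1.90, and WARS1, the tryptophan tRNA ligase, from 117 ± 2.42 to 293 ± 4.74 CPM (1.32, SE 0.05). CIITA, the master regulator of MHC class II genes, fell from 0.829 ± 0.121 to 0.125 ± 0.0585 CPM (log2 fold change -2.73, SE 0.38, adjusted p = 0.000566), with at most 65 counts in a library. NF-kB targets, which share inducers with IFNB1, were also higher in 8 of 10, among them TNF, ICAM1 (1.84, SE 0.06) and IL6 (1.49, SE 0.09). TNF was at 0.0291, 0 and 0 CPM in shCTRL and at 0.189, 0.216 and 0.313 CPM in shCCN3, with at most 20 counts in a library, and no fold is given for it. Differences between these lists and the antiviral effectors were not tested.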

How the data were processed

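The authors deposited raw counts per gene for the 6 libraries, without normalization, with Gene IDs of NCBI beside the symbols. Libraries were made with a stranded mRNA kit. The submitters' processing notes name bcl2fastq 2.20.0, Trimmomatic, HISAT2 2.1.0, StringTie, DESeq2 and the build GRCh38, without role or order. The annotation and the strand setting of counting are not given in the sources used here. Libraries were assigned to groups by their labels. From the counts, genes were filtered with filterByExpr by group, which left 17419. The quasi-likelihood test of edgeR 4.0.16 (R 4.3.3) was run on TMM factors, with Benjamini-Hochberg adjustment over all genes tested. A gene was called at an adjusted p under 0.05. CPM used TMM-scaled library sizes. Exon lengths were unions of GENCODE 29 basic exons. Gene positions and promoters came from RefSeq tables on GRCh38.p14. The procedure was checked on simulated counts. The 12 alternatives were DESeq2 1.42.0, its size factors, library totals, no filter, at least 10 counts in every library, a replicate block, and leaving out each library in turn.

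The 40 members and the other lists were chosen with earlier results of these data known. All members were named, each with its value in every library, since each reached a mean of 1 CPM. Of the other lists, at most 6 genes with an adjusted p under 0.05 were named, by size of log2 fold change. IFI30, PML and GBP3, outside that limit, were named after their values were seen because few genes of their lists fell. A gene of these lists is not reported here by name. Limits set by 3 counts cover counting error only.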

Additional observations from a re-analysis of the deposited data

How the results depend on the processing

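Of the 40 antiviral effectors, 33 were called higher by edgeR, and 34 were by DESeq2, 33 with DESeq2 size factors, 33 with library totals, 32 with no filter on low counts, 33 with at least 10 counts in every library and 30 to 34 when 1 library was left out. The number called and at least 2-fold higher was 20, or 20 to 22 with 1 library left out. The number called lower was 0, or 0 to 1 with 1 library left out, the 1 being LY6E (-0.34) without shCCN3 replicate 2. The median log2 fold change of the members ranged from 0.96 to 1.06 with 1 library left out, and no member changed sign. All genes called numbered 5825, 6189 by DESeq2 and 4181 to 7229 with 1 library left out, the most without shCCN3 replicate 2. IFI44L was called higher by DESeq2 and without shCCN3 replicate 2 or shCTRL replicate 2. IFIT5 lost its call without any 1 of 4 of the libraries and with the block, and DTX3L with no filter and with the block. Same-numbered libraries did not deviate together (correlations 0.0891, -0.0256 and -0.0657). Low correlations do not settle whether these libraries were prepared together, which the sources used here do not give. With a replicate block, 31 members were called higher, 4887 genes were called in all, and the other pathway lists held 38 higher in place of 44.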
